A study of Homo sapiens with 90 samples.

Results

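The metallothioneins and the zinc exporter of the plasma membrane were followed in liver cells through 8 genes chosen by name, namely MT1E, MT1F, MT1G, MT1H, MT1M, MT1X, MT2A and SLC30A1. Every probe set that the array's gene table assigned to 1 of these symbols alone was taken, which gave 12 probe sets of 7 genes. The whole array held 40914 single-symbol probe sets of 19774 genes. MT1H had no probe set of its own, because its only probe set also names MT1HL1. MT1E, MT1F, MT1G, MT1X and SLC30A1 were each read by 2 probe sets, MT1M and MT2A by 1 each. A total of 8 of the 12 probe sets carry the x suffix, which marks probes that can also match other sequences, so the metallothionein readings were not independent of each other.

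Metallothioneins are small proteins rich in cysteine that bind zinc and copper, and also cadmium. Zinc activates the transcription factor MTF1, which binds metal response elements in the promoters of the metallothionein genes and of SLC30A1. SLC30A1 encodes ZnT1, which carries zinc out of the cell. In liver cells the metallothionein genes are also known to respond to glucocorticoids and to inflammatory signals, and their transcripts are a familiar readout of metal load and of stress.

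The promoters are shown for MT2A, MT1X and SLC30A1, because the background above names metal response elements in the promoters of these genes. Each sequence is the 250 bases before the gene's start, 5′ to 3′, from the RefSeq promoter table of build GRCh38.p14, which held 4 of the 8 genes by symbol. Capitals mark the 7-base core of the metal response element, searched as TGCACNC and TGCGCNC on both strands, with overlapping matches counted.
MT2A: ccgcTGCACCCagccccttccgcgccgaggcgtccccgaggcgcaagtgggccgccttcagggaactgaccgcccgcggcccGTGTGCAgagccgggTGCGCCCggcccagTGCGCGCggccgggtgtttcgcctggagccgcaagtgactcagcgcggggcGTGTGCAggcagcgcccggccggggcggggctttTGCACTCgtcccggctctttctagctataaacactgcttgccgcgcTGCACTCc
MT1X: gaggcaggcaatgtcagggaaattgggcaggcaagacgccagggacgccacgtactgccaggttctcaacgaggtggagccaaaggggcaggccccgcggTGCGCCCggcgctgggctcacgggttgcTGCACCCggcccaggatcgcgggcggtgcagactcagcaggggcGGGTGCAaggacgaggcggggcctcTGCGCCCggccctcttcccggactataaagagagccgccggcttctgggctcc
SLC30A1: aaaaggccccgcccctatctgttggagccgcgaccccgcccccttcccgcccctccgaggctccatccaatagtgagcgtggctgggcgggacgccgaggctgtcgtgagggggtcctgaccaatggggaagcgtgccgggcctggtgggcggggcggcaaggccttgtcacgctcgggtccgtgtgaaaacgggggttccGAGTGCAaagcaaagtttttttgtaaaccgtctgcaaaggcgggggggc
The MT2A stretch lay at chr16:56608334-56608583 on the plus strand and held 7 matches, a number that 0.0313% of the 35116 promoters of the table reached. The MT1X stretch, at chr16:56682220-56682469 on the plus strand, held 4 matches, reached by 0.37% of promoters. The SLC30A1 stretch, at chr1:211579162-211579411 on the minus strand, held 1 match, and 24.8% of all promoters held at least 1. The promoter of MT1H, not printed, held 8 matches, reached by 0.0171%. These matches describe the letters in the window only and were not measured as binding. In the annotation the listed metallothionein genes lie together on chromosome 16, MT2A first and MT1X last among those listed, while SLC30A1 lies on chromosome 1.

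HepG2, an established human liver tumour line, was grown in multiwell plates and treated for 24 h with fenbuconazole (a triazole fungicide), imazalil (an imidazole fungicide) or the chlorophenoxy herbicide 2,4-D. The doses were 0.001, 0.003 and 0.01 µM at the low end, 0.03, 0.1 and 0.3 µM in the middle and 1, 3 and 10 µM at the top, with 3 arrays each, and 3 arrays of cells in the DMSO vehicle served as controls for all of them. Every group, treated or not, contained 0.2% DMSO. The values are log2 intensities that the authors normalized separately for each compound, so each set of 30 columns has its own copy of the 3 DMSO arrays and was compared only with that copy. The comparisons ask whether a compound changed these genes, at which dose, and whether the compounds differed.

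The labelled cell line showed its liver identity, with all 9 measured hepatocyte markers between 10.07 and 13.07 in DMSO (ALB and SERPINA1 among the highest). Of markers of other cells, 1 of 6 fibroblast genes reached a level of 4 (COL1A1, at 4.28), and 0 of 4 endothelial and 0 of 4 blood genes did. Array medians were 2.95 to 3.15, and the number of arrays limits the precision. A level of 4 was used to call a probe set dim. By that measure 10 of the 12 probe sets were bright, and 2 were dim, MT1M (mean 2.51) and the second MT1G probe set, 210472_PM_at (mean 2.61).

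None of the 7 genes passed the threshold at 10 µM of any compound, and the log2 differences of the 10 bright probe sets to DMSO lay between -0.10 and 0.20. MT2A, the most widely expressed family member in human tissues, gave 11.20, 11.19 and 11.35 (log2 intensity, 212185_PM_x_at) in the DMSO arrays of the fenbuconazole set and 11.18, 11.17 and 11.32 at 10 µM. The groups overlapped, with a log2 difference of -0.02 ± 0.09 (SE). With imazalil the DMSO arrays gave 11.16, 11.21 and 11.34 and the arrays at 10 µM gave 11.29, 11.27 and 11.47, a log2 difference of 0.10 ± 0.09. With 2,4-D the DMSO arrays gave 11.26, 11.25 and 11.37 and the arrays at 10 µM gave 11.31, 11.43 and 11.38, a log2 difference of 0.08 ± 0.08. The groups overlapped in these sets too.

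The count of members called was 0 of 12 for each compound by limma at an adjusted p under 0.05. Over all probe sets the share called was 0.00978% for fenbuconazole, 0.0464% for imazalil and 0% for 2,4-D. At an unadjusted p under 0.05 there were 0 members for fenbuconazole, 1 for imazalil (MT1M, lower) and 3 for 2,4-D (MT1F on 213629_PM_x_at and the dim MT1G probe set higher, MT1M lower), beside 4.4%, 5.44% and 4.07% of all probe sets. These data bound the change of the bright members. The 95% intervals of their folds at 10 µM over DMSO ran from 0.820 to 1.17 for fenbuconazole, from 0.817 to 1.24 for imazalil and from 0.894 to 1.26 for 2,4-D. The median log2 change of the 12 members was -0.02, 0.07 and 0.08 in the same order, beside -0.0017, -0.0021 and -0.00011 over all probe sets.

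**Figure D1:**
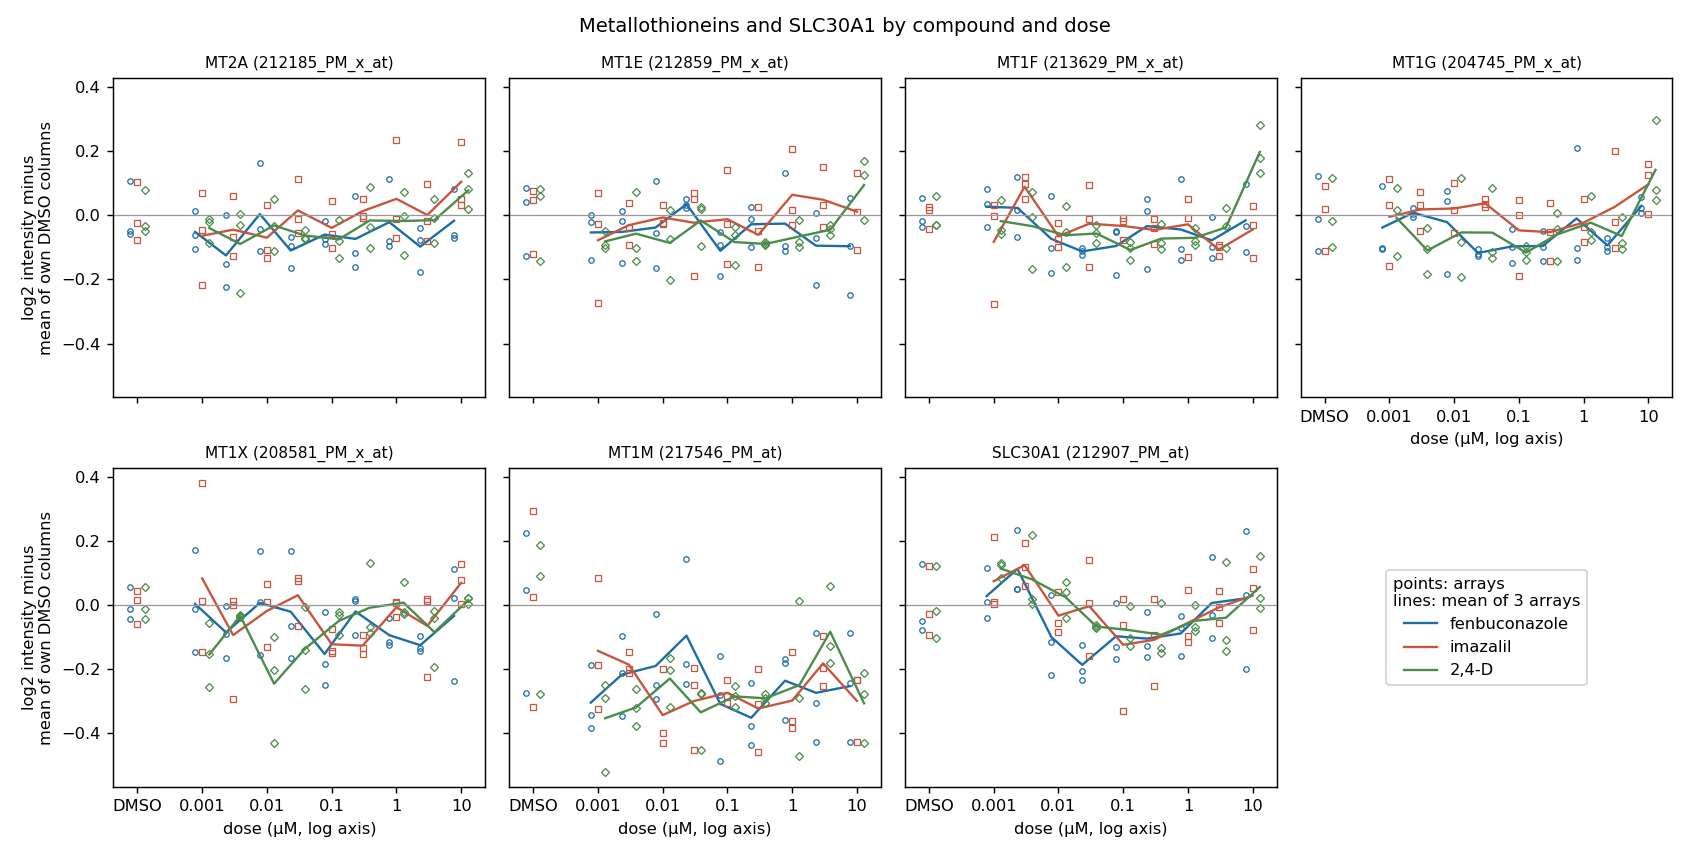
Log2 intensity relative to the DMSO mean of the same set (y axis) against dose in µM on a log axis (x axis), for 1 probe set of each gene. Points are single arrays, shifted sideways by set, and lines join the means of 3 arrays per dose. The arrays of MT1F at 10 µM 2,4-D stand above the lower doses, SLC30A1 on this probe set is lower at the middle doses than at 0.003 µM, and the dose means of MT1M all lie below 0.

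SLC30A1 was not called at any dose either. On its probe set 212907_PM_at, the DMSO arrays of the 2,4-D set gave 8.58, 8.36 and 8.44 (log2 intensity) and the arrays at 10 µM gave 8.62, 8.45 and 8.49, with overlapping groups. The log2 difference at 10 µM was 0.02 ± 0.10 for fenbuconazole, 0.03 ± 0.10 for imazalil and 0.06 ± 0.08 for 2,4-D (SE). Its mean was 8.44, 8.45 and 8.54 at 0.003 µM of fenbuconazole, imazalil and 2,4-D, 8.22, 8.22 and 8.37 at 0.3 µM, and 8.35, 8.36 and 8.52 at 10 µM. On this probe set the level at 0.3 µM was thus the lowest of these 3 doses in every set, but the 3 were picked from 9. Over the 9 doses the lowest mean was 8.14 at 0.03 µM of fenbuconazole, 8.20 at 0.1 µM of imazalil and 8.37 at 0.3 µM of 2,4-D. The F test over the 9 doses gave an adjusted p of 0.965 or more. The second probe set, 228181_PM_at, read 6.99, 7.06 and 7.08 at 0.003 µM and 6.97, 6.93 and 7.03 at 0.3 µM. At 10 µM it read 6.91, 6.90 and 7.18, so that only the 2,4-D set was lower at 0.3 µM than at both other doses. Its log2 differences at 10 µM were -0.02 ± 0.12, -0.09 ± 0.10 and 0.06 ± 0.11.

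The MT1 genes, which encode the other copies of the family, were not called at 10 µM against DMSO. MT1E (212859_PM_x_at) differed by -0.10 ± 0.09 for fenbuconazole, 0.01 ± 0.10 for imazalil and 0.09 ± 0.07 for 2,4-D on the log2 scale (SE). MT1X (208581_PM_x_at) differed by -0.03 ± 0.10, 0.07 ± 0.10 and 0.02 ± 0.08. MT1G (204745_PM_x_at) differed by 0.03 ± 0.09, 0.10 ± 0.09 and 0.14 ± 0.09. The second bright probe sets of MT1E and MT1X gave -0.07 ± 0.07, 0.12 ± 0.09 and 0.10 ± 0.08 and -0.08 ± 0.10, 0.09 ± 0.11 and 0.02 ± 0.07. MT1F had the largest difference among the bright probe sets. On 213629_PM_x_at it differed by -0.02 ± 0.09 and -0.04 ± 0.08 for the fungicides and by 0.20 ± 0.07 for 2,4-D (adjusted p = 1.00 by limma), and on 217165_PM_x_at by 0.08 ± 0.08 for 2,4-D.

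Below 10 µM no member was called at any of the 8 doses of any compound, 0 of 96 tests per compound by limma. The share of all tests called was 0%, 0.000306% and 0.000306% for fenbuconazole, imazalil and 2,4-D. At an unadjusted p under 0.05 the members gave 6, 7 and 14 of 96, beside 3.08%, 3.69% and 4.33% of all tests. Most of those came from the dim probe sets. MT1M was below DMSO in all 27 dose contrasts, by -0.08 to -0.35 on the log2 scale, and 18 of them had an unadjusted p under 0.05. All 27 rest on copies of the same 3 DMSO arrays, which read 2.42, 2.75 and 2.92 in the fenbuconazole set, while the 27 treated arrays of that set ran from 2.21 through a median of 2.45 to 2.84. The first DMSO array lay among the treated arrays and the third above them all. The dim MT1G probe set was above DMSO in 25 of 27 contrasts, by up to 0.49.

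Tests that use all doses called no member. The F test over 9 doses called 0 of 12 for each compound, beside 0.00733%, 0.0244% and 0% of all probe sets for fenbuconazole, imazalil and 2,4-D. At an unadjusted p under 0.05 it gave 0, 0 and 2 members (both of MT1F) beside 3.47%, 4.44% and 5.13%. The slope per 10-fold dose over the 27 treated arrays also gave 0 of 12 by limma, beside 0.00978%, 0.0318% and 0%. At an unadjusted p it gave 0, 1 and 2 members beside 6.07%, 6.44% and 4.82%. The slope of MT2A was 0.03 ± 0.02 (log2 per 10-fold dose) with imazalil at an adjusted p of 0.743, and that of MT1X was 0.04 ± 0.01 on 204326_PM_x_at and 0.04 ± 0.02 on 208581_PM_x_at with 2,4-D at an adjusted p of 0.998, so none of these slopes passed the test.

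A comparison that leaves the shared DMSO arrays out, 10 µM against the mean of the 3 lowest doses (0.001, 0.003 and 0.01 µM), gave 7 of 12 members at an unadjusted p under 0.05 in the 2,4-D set and 0 by the adjusted p. MT1F (213629_PM_x_at) ran from 9.36 through a median of 9.48 to 9.60 in the 9 arrays of the lowest doses and read 9.71, 9.66 and 9.81 at 10 µM. Its DMSO arrays read 9.50, 9.50 and 9.59. The 3 arrays at 10 µM on this probe set were thus above all 24 arrays of the lower doses and above DMSO. This separation from the lower doses was not a planned comparison. With 2,4-D, 0.0611% of all probe sets showed it, and that share was taken for this set only. Among the 12 members it was the only 1 with that separation with 2,4-D, and 0 members had it with fenbuconazole or imazalil. On the second bright MT1F probe set, 217165_PM_x_at, the arrays at 10 µM read 9.22, 9.22 and 9.37, and 1 of these 3 was above all 24. On 213629_PM_x_at the log2 difference to the lowest doses was 0.24 ± 0.06 (SE), a fold of 1.18 with a 95% interval of 1.09 to 1.28, and its adjusted p was 0.778 by limma.

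MT1G (204745_PM_x_at) ran from 9.36 through a median of 9.46 to 9.66 in the 9 arrays of the lowest 2,4-D doses and read 9.60, 9.63 and 9.85 at 10 µM. Its log2 difference was 0.20 ± 0.07. MT1E (212859_PM_x_at) ran from 10.81 through 10.92 to 11.08 and reached 11.14 and 11.18 in replicates 2 and 3 at 10 µM, above all 9, while replicate 1 lay among them, with a log2 difference of 0.17 ± 0.06. The groups of both genes overlapped. MT1X (208581_PM_x_at) ran from 8.98 through 9.31 to 9.38 and read 9.44, 9.44 and 9.42 at 10 µM, a log2 difference of 0.16 ± 0.07 with no overlap. Its DMSO arrays, at 9.40, 9.37 and 9.47, were however as high as those at 10 µM. MT2A ran from 11.05 through 11.26 to 11.34 and read 11.31, 11.43 and 11.38, a log2 difference of 0.13 ± 0.06 with overlap. SLC30A1 differed by -0.02 ± 0.07 on 212907_PM_at and 0.09 ± 0.09 on 228181_PM_at.

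The count of members called in this comparison was 0 of 12 by limma for every compound, beside 0.0318%, 0.122% and 0% of all probe sets for fenbuconazole, imazalil and 2,4-D. At an unadjusted p under 0.05 it gave 0 members for fenbuconazole, 1 for imazalil (MT2A, higher) and 7 for 2,4-D, all higher, beside 5.23%, 6.62% and 4.28% of all probe sets in either direction and 3.02%, 3.65% and 2.55% in the higher direction. The 7 were 7 of the 8 bright metallothionein probe sets. This count at an unadjusted p was chosen after seeing the data, and without replicate 1, 2 or 3 of all groups it was 3, 2 and 4. The labels give each array a code P1, P2 or P3, equal to its replicate number, and do not say what P stands for. Within each of the 3 P codes of the 2,4-D set, 8 of the 12 members were higher at 10 µM than at the lowest doses, beside 11.6% of all probe sets. The corresponding counts were 2 for fenbuconazole beside 11.4% and 5 for imazalil beside 14.8%. Against the DMSO array of the same code, a baseline added after seeing the data, the counts were 1, 4 and 6 of 12 for fenbuconazole, imazalil and 2,4-D, beside 13.5%, 13.4% and 12.9% of all probe sets, and among the 8 bright metallothionein probe sets they were 0, 4 and 4. The members lay mostly below DMSO at the lower doses of every set, and all sets use copies of the same 3 DMSO arrays. Of 96 member tests, 20, 30 and 16 were above 0 for fenbuconazole, imazalil and 2,4-D, beside 49.0%, 47.9% and 48.8% of all tests. All 3 arrays at 10 µM were above all 9 of the lowest doses for 2 members with 2,4-D, beside 0.503%, and for 0 members with fenbuconazole and with imazalil, beside 0.557% and 1.18%.

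**Figure D2:**
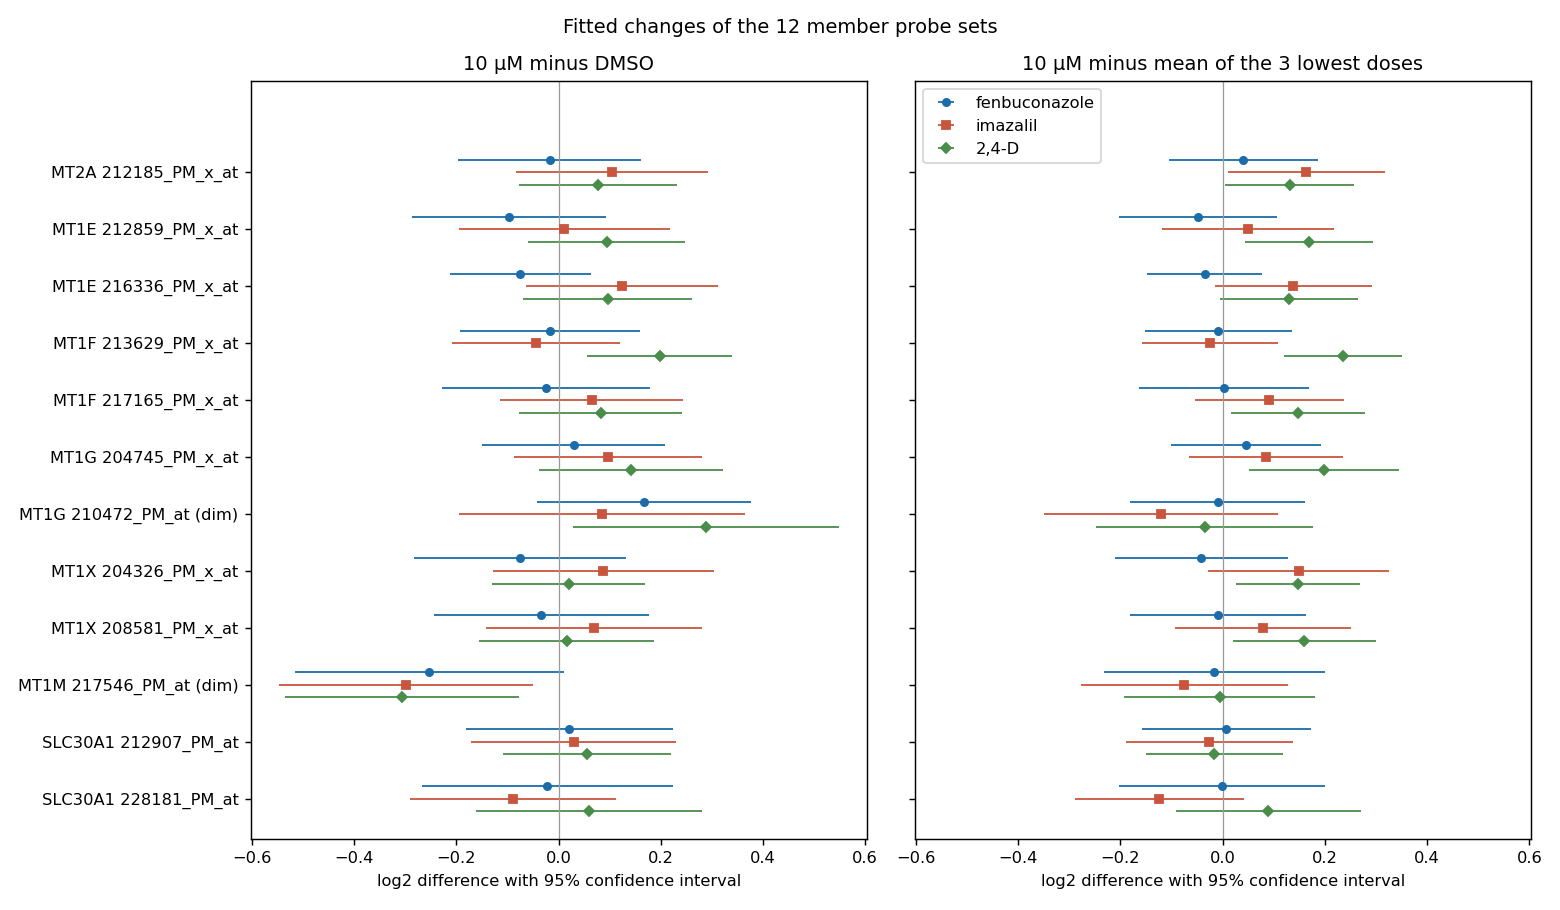
Fitted log2 differences (x axis) of the 12 member probe sets (y axis) with 95% confidence intervals, 10 µM against DMSO on the left and against the mean of the 3 lowest doses on the right. Symbols are the compounds. On the right, the 2,4-D estimates of the 8 bright metallothionein probe sets all lie above 0, between 0.13 and 0.24, and none passed the adjusted threshold.

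The compounds were compared at 10 µM in 3 pairs, on values centred on each set's own DMSO mean, which assumes that the common DMSO arrays stand for all sets alike. No member was called, 0 of 12 in each pair by limma, beside 0.0171% of all probe sets for imazalil minus fenbuconazole, 0.044% for fenbuconazole minus 2,4-D and 0.12% for imazalil minus 2,4-D. At an unadjusted p under 0.05 the members gave 1, 3 and 1 in that order, beside 9.19%, 6.47% and 8.27%. The largest size was that of MT1F (213629_PM_x_at). Imazalil lay below 2,4-D there by a log2 difference of -0.24 ± 0.07 (SE, 95% interval -0.39 to -0.10, adjusted p = 0.278), and fenbuconazole below 2,4-D by -0.21 ± 0.07 (-0.36 to -0.06, adjusted p = 0.553). MT2A differed by 0.12 ± 0.09 between imazalil and fenbuconazole (-0.05 to 0.30), by -0.09 ± 0.08 between fenbuconazole and 2,4-D (-0.25 to 0.06) and by 0.03 ± 0.08 between imazalil and 2,4-D (-0.14 to 0.19). For SLC30A1 (212907_PM_at) the same intervals were -0.19 to 0.20, -0.21 to 0.14 and -0.20 to 0.15.

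Of the 10 metallothionein probe sets, 6 differed between the P codes when all arrays were fitted at once, and those of MT1X and MT1M, the dim one of MT1G and those of SLC30A1 did not pass. In the fits of single sets no member was called for the code, 0 of 12 each by limma, beside 0.0489%, 0.0122% and 0.904% of all probe sets for fenbuconazole, imazalil and 2,4-D. At an unadjusted p under 0.05 there were 3, 4 and 6 members beside 10.2%, 11.2% and 13.1%. When all 84 arrays were normalized together and fitted at once, with member values added after seeing the data, 6 of 12 members passed the F test over the codes beside 7.27% of all probe sets, and 10 of 12 had an unadjusted p under 0.05 beside 22.6%. MT2A averaged 11.17 ± 0.06, 11.19 ± 0.09 and 11.31 ± 0.09 with codes 1, 2 and 3 (SD, n = 28 arrays each) and exceeded code 1 by 0.14 with code 3 (adjusted p = 1.68e-05 by limma). Both MT1E and both MT1F probe sets and the bright MT1G probe set exceeded code 1 by 0.08 to 0.12 with code 3. MT1X did not pass, with differences of 0.05 and 0.08 (adjusted p = 0.407 and 0.113 by limma), nor did SLC30A1, with -0.03 on 212907_PM_at and 0.06 on 228181_PM_at (adjusted p = 0.173 and 0.147 by limma). Each group held 1 array of each code, so the code does not separate doses.

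**Figure D3:**
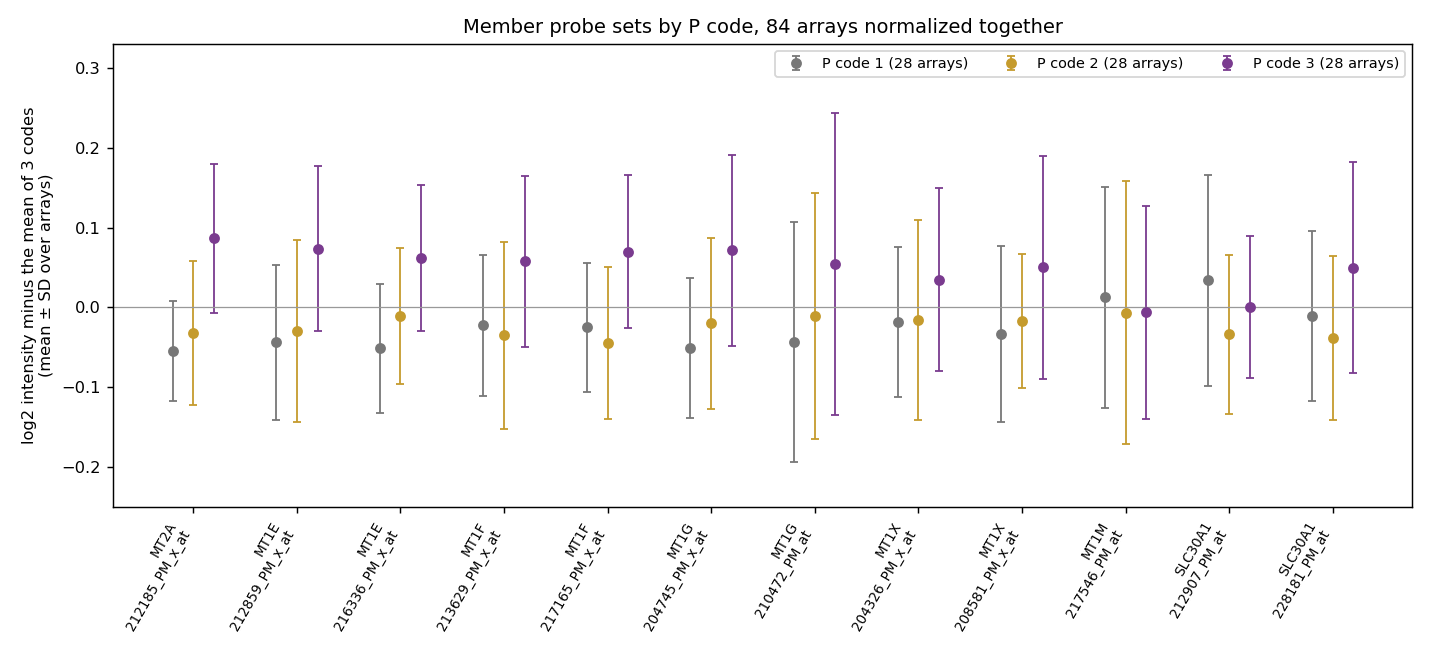
Log2 intensity of each member probe set minus the mean of the 3 P codes (y axis), with the probe sets along the x axis, for 84 arrays normalized together. Points are means over 28 arrays and bars are SD. Code 3 is the highest of the 3 for all 8 bright metallothionein probe sets, whereas MT1M and SLC30A1 (212907_PM_at) are highest with code 1.

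Among treated arrays, MT2A, MT1E, MT1F and MT1G correlated with each other in most pairs, and few pairs with MT1X or SLC30A1 and none with MT1M passed. Correlations were taken over the 27 treated arrays of each set, 1 probe set per gene, for 63 pairs in all, with permutation p adjusted over the 63. The permutations shuffled arrays across P codes, so these p-values do not separate a shift shared by a code from other co-variation. Of the 10 pairs of the bright metallothioneins, 5 passed for fenbuconazole, 6 for imazalil and 6 for 2,4-D by Pearson's r, and 4, 3 and 5 by Spearman's rho. The share of all gene pairs that would pass was not computed, so these counts have no background beside them. Genes outside the family can reach similar values. LGALS3, picked as the most alike among 19773 genes, had a mean r of 0.601 with MT2A, beside 0.597 for MT1F with MT2A. MT1M passed with 0 of the 5 bright metallothioneins in every set. The median r of the 10 pairs was 0.463, 0.520 and 0.613. MT2A and MT1G had r = 0.623, 0.650 and 0.701 (permutation adjusted p = 0.00539, 0.00262 and 0.00157; rho = 0.605, 0.674 and 0.707, permutation adjusted p = 0.00969, 0.00462 and 0.00346). Without the 2 farthest arrays these r were 0.502, 0.563 and 0.681. For MT1X, 0 of its 4 pairs with other bright metallothioneins passed in the fenbuconazole and 2,4-D sets, and 1, with MT1G at r = 0.552, passed in the imazalil set (permutation adjusted p = 0.0119; rho = 0.629, permutation adjusted p = 0.00661; r = 0.511 without the 2 farthest arrays).

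SLC30A1 correlated with none of the 5 bright metallothioneins past the threshold in the imazalil and 2,4-D sets. In the fenbuconazole set it did with 1, MT1E, and in the opposite direction, at r = -0.544 (permutation adjusted p = 0.0135; rho = -0.522, permutation adjusted p = 0.0307; r = -0.420 without the 2 farthest arrays). With the interquartile range of each array regressed out, that pair no longer passed (r = -0.444, rho = -0.466, permutation adjusted p = 0.0546 and 0.0569). On deviations from the dose means it passed (r = -0.583, rho = -0.605, permutation adjusted p = 0.00559 and 0.00470), though the permutations did not keep arrays within a dose. Within single P codes of 9 arrays the median r of the 10 metallothionein pairs was 0.0450, 0.396 and 0.502 for fenbuconazole, 0.134, 0.562 and 0.186 for imazalil and 0.358, 0.722 and 0.432 for 2,4-D. Of the 10 pairs, 5 to 10 had r above 0 within a code. The probe sets of the family can match each other's transcripts, and what this adds to their correlation was not tested. The probe sets of 1 gene agreed only in part, from r = 0.695 to 0.739 for MT1X through 0.454 to 0.569 for MT1E, 0.248 to 0.511 for MT1F and 0.214 to 0.514 for SLC30A1 down to 0.0130 to 0.295 for the bright and the dim probe set of MT1G. The spread of an array's values, its interquartile range, moved with some members. MT1E correlated negatively with it in every set by Pearson's r, and by rho it did not pass (r = -0.567, -0.505 and -0.481, permutation adjusted p = 0.0222, 0.0286 and 0.0364 over 21 relations; rho = -0.504, -0.531 and -0.415, permutation adjusted p = 0.0552, 0.0521 and 0.105; r = -0.600, -0.432 and -0.430 without the 2 farthest arrays). MT1G did so in the fenbuconazole set by both measures (r = -0.634, permutation adjusted p = 0.00609; rho = -0.611, permutation adjusted p = 0.0183; r = -0.594 without the 2 farthest arrays). By Pearson's r alone, MT2A with fenbuconazole (r = -0.509, rho = -0.471, permutation adjusted p = 0.0286 and 0.0745; r = -0.401 with the 2 outermost arrays left out) and SLC30A1 with imazalil (r = 0.526, rho = 0.365, permutation adjusted p = 0.0286 and 0.135; r = 0.251 with those 2 left out) also passed.

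**Figure D4:**
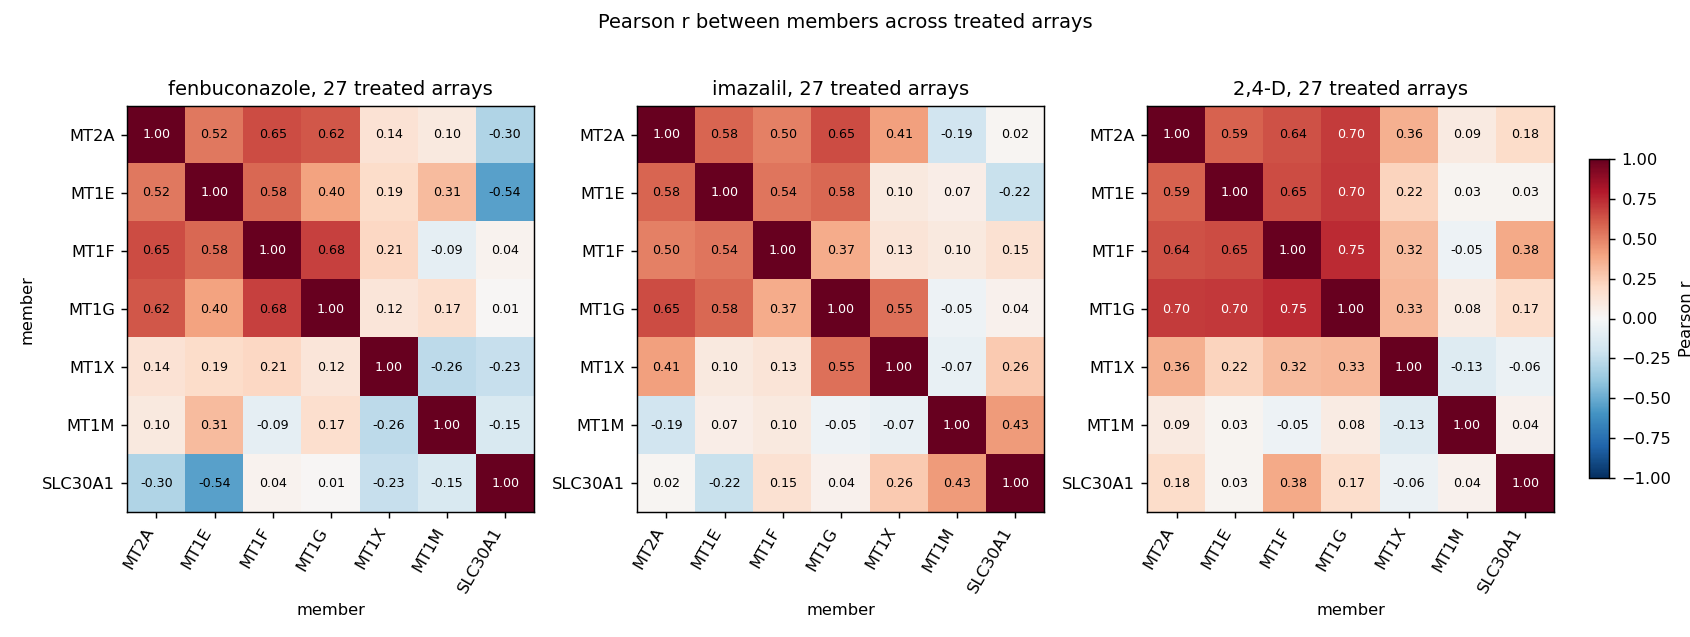
Pearson r between members (both axes, 1 probe set per gene) over the 27 treated arrays of each set, printed in each cell and coloured from -1 to 1. The block of MT2A, MT1E, MT1F and MT1G lies between 0.37 and 0.75 in all sets, and SLC30A1 lies between -0.54 and 0.38 with the bright metallothioneins.

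The genes whose pattern was most like that of MT2A, by the mean over the 3 sets of r across 27 treated arrays and among 19773 genes, were MT1G (0.658), LGALS3 (0.601), MT1F (0.597), TNFRSF21 (0.595) and SLC20A1 (0.590). For MT1X they were RPL4 (0.609), GUK1 (0.598), TUBB4B (0.596), FAM98A (0.594) and CCDC86 (0.582), with no member among them. For SLC30A1 they were SLC6A14 (0.572), the zinc importer SLC39A14 (0.563), LAMC1 (0.540), ATRX (0.530) and MERTK (0.520). The points share the array, so its spread and P code enter these values.

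The genes of zinc and copper handling were not called at 10 µM either. Of the zinc exporters besides SLC30A1, 9 of 9 were measured, of the zinc importers 14 of 14 and of the copper handling genes 10 of 10, and 0 passed for any compound by limma. At an unadjusted p under 0.05 the importers gave 1 gene with fenbuconazole (SLC39A10) and 1 with 2,4-D (SLC39A1), copper handling gave 1 with imazalil (CP, a copper carrier of plasma), and the exporters gave 0. The share of all probe sets at that threshold was 4.4%, 5.44% and 4.07% for fenbuconazole, imazalil and 2,4-D. Median log2 changes of the exporters were -0.05, 0.02 and 0.01 for fenbuconazole, imazalil and 2,4-D, and of the importers -0.02, 0.01 and -0.02. MTF1, the zinc sensor, read 5.03 ± 0.07, 5.10 ± 0.09 and 5.37 ± 0.11 in DMSO (SD, n = 3) and differed by -0.02 ± 0.13, 0.24 ± 0.15 and -0.14 ± 0.11 at 10 µM (SE). MTF1 was listed with MTF2, PHF19, KLF4, SP1, USF1 and TFEB, without a claim that each of them regulates the response to metal. Of these 7 measured genes 0 passed, and 1 had an unadjusted p under 0.05 (PHF19 with 2,4-D). Of the other metallothioneins, 3 of 10 were measured and 0 passed at either threshold.

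Of the glucocorticoid targets 1 of 10 passed, and with imazalil alone among the compounds. Over all probe sets the share that passed was 0.00978%, 0.0464% and 0% for fenbuconazole, imazalil and 2,4-D. SGK1, a kinase induced by glucocorticoids, read 8.94 ± 0.04 in DMSO and 8.51 ± 0.07 at 10 µM (SD, n = 3) and fell by 0.43 on the log2 scale (SE 0.06, fold 0.743, adjusted p = 0.00192 by limma). With fenbuconazole and 2,4-D its log2 difference was -0.17 ± 0.07 and 0.07 ± 0.08. The medians of the list were -0.01, -0.04 and -0.01 beside -0.0017, -0.0021 and -0.00011 over all probe sets. At an unadjusted p under 0.05 the list gave 1, 3 and 1 genes, beside 4.4%, 5.44% and 4.07% of all probe sets. Those with imazalil were SGK1, KLF9 (log2 difference -0.50 ± 0.12, adjusted p = 0.260 by limma) and PCK1 (0.63 ± 0.16, adjusted p = 0.317 by limma). The gene with fenbuconazole was SGK1, and the gene with 2,4-D was KLF9 (-0.32 ± 0.11). KLF9 differed by -0.21 ± 0.17 with fenbuconazole, so it was lower than the shared DMSO arrays in every set. The call for SGK1 was lost when only the DMSO and 10 µM arrays were fitted (fold 0.743, adjusted p = 0.585 by limma) and when replicate 1, 2 or 3 was left out of all groups at once (folds 0.713, 0.763 and 0.755, adjusted p = 0.335, 0.496 and 1.00 by limma). It was kept when 1 DMSO array or 1 array at 10 µM alone was left out, with folds of 0.723 to 0.754. With imazalil SGK1 also passed the F test over 9 doses and the slope over the treated arrays (adjusted p = 0.00433 and 0.00496 by limma). Against the 3 lowest doses it differed by -0.46 on the log2 scale at 10 µM (adjusted p = 1.53e-05 by limma). Of the 12 measured acute phase and STAT3 targets 0 passed for any compound, and 2, 1 and 0 had an unadjusted p under 0.05, beside the same shares of all probe sets.

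**Figure D5:**
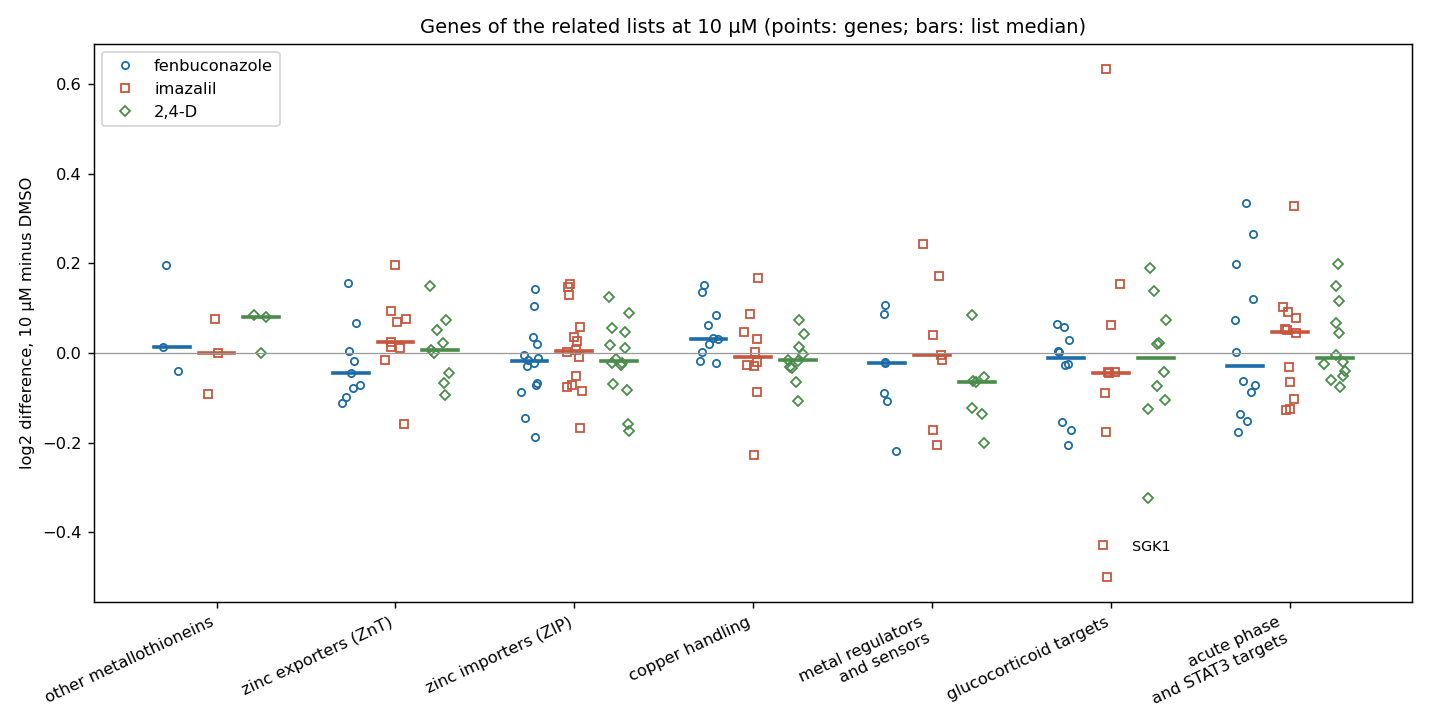
Log2 difference of 10 µM to DMSO (y axis) for the measured genes of each list (x axis), by compound. Points are genes and bars are list medians, which lie between -0.07 and 0.08. SGK1 with imazalil, at -0.43, is the only gene in the plot that passed the threshold.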

How the data were processed

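RNA of HepG2 cells was labelled from the 3' end and hybridised to HT HG-U133+ PM arrays of Affymetrix. Log2 intensities per probe set were deposited, which the authors normalized by RMA separately for each compound's 27 treated arrays and 3 common DMSO arrays (90 columns of 84 different arrays, per the labels). The processing notes name RMA and Partek, without versions. The labels do not say that replicates came from separate cultures, so p-values measure the spread between these arrays, which may be technical.

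Fits were made in R 4.3.3 with limma 3.58.1 (lmFit, eBayes) on all 40914 single-symbol probe sets, 1 mean per group, over the 30 columns of a set, two-sided, with Benjamini-Hochberg adjustment within each contrast and a threshold of 0.05. Slopes used log10 dose over the treated columns. Correlations used 100000 permutations in Python 3.11.15 with numpy 2.4.6. The fits were tested on simulated data. Through their Entrez numbers, 40858 of the probe sets were found in RefSeq. The members and lists were chosen with earlier results of these data known. All member probe sets are named, with up to 4 genes per list past the threshold and, for MT2A, MT1X and SLC30A1, the 5 most alike genes. A gene's representative is its probe set with the highest mean over the 90 columns. SLC39A10, SLC39A1, CP, PHF19, KLF9, PCK1 and MTF1 were named after their values were seen. Alternatives covered the replicate number (the same as the unexplained label code P) as a block, 1 probe set per gene, dim probe sets left out, the variance model, joint normalization, array spread and leaving out arrays.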

Additional observations from a re-analysis of the deposited data

How the results depend on the processing

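For 18 member call counts outside the P code, all 183 values under alternatives equalled 0, so no member call appeared in those settings. Of 333 member changes at 10 µM under alternatives, 305 kept direction and side, 28 took the opposite sign with sizes up to 0.0963 (log2), and 0 passed the threshold (smallest adjusted p 0.286 by limma). The cause of these changes was not tested.

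The count of members called for the P code was 0 in each single set and 6 in each set's place when the 84 arrays were normalized together. With a trended, robust variance it was 1 for imazalil and 3 for 2,4-D, and with dim probe sets left out it was 2 for 2,4-D. The call of SGK1 became 0 with the 2 groups fitted alone, was 0 without replicate 1, 2 or 3 of all groups and 1 without a single DMSO or 10 µM array, and thus ranged from 0 to 1. The unadjusted count of members higher with 2,4-D, 7 in the report, ranged from 2 to 4 without a replicate. After the interquartile range was regressed out, 2 member pairs passed for fenbuconazole, 7 for imazalil and 9 for 2,4-D, in place of 6 in each set. On deviations from the dose means, 6, 8 and 5 of the 10 pairs of bright metallothioneins passed by Pearson's r, in place of 5, 6 and 6.

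Signs turned with the interquartile range as covariate for MT1G with fenbuconazole (-0.011) and SLC30A1 with imazalil (-0.016), and with joint normalization for MT1E with imazalil (-0.079). Leaving out replicates gave fenbuconazole ranges of -0.073 to 0.033 for MT1F, -0.026 to 0.091 for MT1G, -0.130 to 0.096 for MT1X, -0.066 to 0.036 for MT2A and -0.084 to 0.131 for SLC30A1. Imazalil ranges were -0.049 to 0.094 for MT1E, -0.082 to 0.0075 for MT1F and -0.025 to 0.090 for SLC30A1, and the 2,4-D range for MT1X was -0.0093 to 0.050.

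The replicate numbers were not taken as pairs: the labels do not say that the P code equal to them marks a shared batch. Deviations of same-numbered arrays had a median correlation of 0.0417, 0.0186 and 0.0560 for fenbuconazole, imazalil and 2,4-D, with 38.5%, 26.7% and 25.9% of them over 0.1. For arrays of different numbers the median was -0.0286, -0.0115 and -0.0288. The number is also the P code, for which 7.27% of all probe sets passed over 84 arrays, so same-numbered arrays do share some variation. With the replicate block the member call counts stayed at 0, and the unadjusted 2,4-D count was 8. Probe sets near background, here MT1M and 210472_PM_at of MT1G, carry little range in which a decrease could show.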

Other observations

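The probe set that names both MT1HL1 and MT1H (206461_PM_x_at) was left out of the members because it cannot be assigned to 1 gene. In DMSO it read 10.51 ± 0.05, 10.49 ± 0.05 and 10.61 ± 0.05 (log2 intensity, SD, n = 3) in the fenbuconazole, imazalil and 2,4-D sets. Its log2 difference at 10 µM was -0.04 ± 0.11, -0.03 ± 0.10 and -0.01 ± 0.09 against DMSO (SE) and 0.03 ± 0.09, 0.04 ± 0.08 and 0.13 ± 0.07 against the 3 lowest doses. No adjusted p was under 0.973 by limma over 54613 probe sets.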
